A study of Mus musculus with 3 samples.

Results

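The 33 genes described here are Trp53, which encodes the transcription factor p53, and 32 genes of its damage response, chosen by name from what is known of the p53 pathway. No measured value enters the rule, but earlier results of these data were known when the genes were chosen. All noncontrol probes carrying 1 of the 33 gene names were taken, which gave 40 of the 39429 distinct probes on the array, and 37 of them passed the filter on dim probes. All 33 genes had a probe that passed, out of 30342 gene names on the array and 16819 genes that could be tested. The cells were RM1, a prostate cancer line of the mouse made by introducing activated ras and myc oncogenes into prostate tissue. They had been transfected with MXRA7, whose name refers to matrix remodelling, to give RM1-MXRA7, or with vehicle vector, to give RM1-VE, and the labels do not say whether either line is 1 clone. Both lines were kept in serum-containing medium with G418, the drug that selects for the vector, and were harvested in exponential growth on day 2, so neither line had been given a DNA-damaging agent as far as the labels say. Total RNA of the lines was compared on 3 Agilent 2-colour arrays, replicates 1 to 3, with RM1-MXRA7 in Cy3 and RM1-VE in Cy5 on each. Each array gave 1 log2 ratio of RM1-MXRA7 over RM1-VE per probe (n = 3), and the number of arrays limits the precision.

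p53 is held at a low level in unstressed cells by Mdm2, a ubiquitin ligase that marks it for breakdown, and by the related inhibitor Mdm4. DNA damage activates the kinases ATM and ATR, which release p53 from this control, and p53 then switches on genes for growth arrest, repair, cell death and its own restraint. Much of that control acts on the p53 protein, which an RNA array does not measure, and the labels do not give the state of the Trp53 gene in RM1 cells.

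p53 binds DNA through pairs of a 10-base unit made of 3 purines, C, A or T, A or T, G and 3 pyrimidines, which reads the same on both strands. RefSeq promoters (GRCm38.p6, 250 bases before to 50 after each gene's start) were held for 26 of the 33 genes. An exact match to the unit lay in 10 of the 26 (38.46%), namely those of Trp53, Mdm2, Ppm1d, Ccng1, Gadd45a, Sesn1, Aen, Ei24, Polk and Rps27l. Of all 27025 genes with a promoter entry, 9.55% held such a match. A pair of units at most 13 bases apart with at most 1 mismatch lay in the promoters of Ccng1 and Rps27l, against 0.718% of all promoters. Of these 10 genes, Gadd45a was higher and Ppm1d and Polk lower in RM1-MXRA7 by the tests below, so matches lay in promoters of genes that moved in either direction and of genes that did not pass. The stretches around the match are shown for Mdm2 and Ppm1d, restraints on p53, for Ccng1, an early p53 target, and for Gadd45a, the growth arrest gene. Capitals mark the 10-base match, and the coordinates and the gene's strand are those of GRCm38.p6.
Mdm2, chr10:117710910-117710969, minus strand: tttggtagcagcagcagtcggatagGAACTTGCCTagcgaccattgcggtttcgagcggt
Ppm1d, chr11:85311097-85311156, plus strand: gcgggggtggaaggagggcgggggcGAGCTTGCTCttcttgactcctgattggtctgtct
Ccng1, chr11:40755437-40755496, minus strand: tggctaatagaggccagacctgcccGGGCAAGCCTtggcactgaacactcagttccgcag
Gadd45a, chr6:67037413-67037472, minus strand: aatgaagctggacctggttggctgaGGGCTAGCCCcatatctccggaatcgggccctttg

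Log ratios on these arrays ran along the array rows, so each gene was tested before and after a smooth surface over row and column had been subtracted from every array. A gene is said to have risen or fallen only where both fits called it in the same direction at a Benjamini-Hochberg adjusted p under 0.05 (limma, over all 16819 genes). Between 21767 and 24172 probes per array and channel were well above background. Mxra7 itself had a log2 ratio of 0.31 before surface removal (limma adjusted p = 0.00531) and 0.01 after it (adjusted p = 0.936), so the transfected gene passed in 1 fit only. Krt8, Krt18, Vim, Hras and Myc were well above background in both lines on all arrays, whereas the prostate genes Pbsn and Tmprss2 and the epithelial genes Epcam and Cdh1 were so on 0 arrays. Myc was called higher in both fits, at 0.33 before and 0.35 after surface removal. Of the mesenchymal genes, Col1a1 was called lower in both fits (-1.82 and -1.75) and Col3a1 higher (1.83 and 1.83), and Vim and Cdh2 were called in neither. Of the leukocyte genes, Ptprc was above background on 0 arrays and Cd68 on all 3 in both lines, at -0.34 before and -0.05 after surface removal. The endothelial genes Pecam1 and Cdh5 were above background on all 3 arrays in both lines, Pecam1 at -0.19 and -0.13 and Cdh5 at -0.87 and -0.77, and their part in the results was not tested. All arrays lay on 1 slide with 1 scan, no dye swap was made, so a dye effect of a single probe and a line difference cannot be told apart. Separate cultures are not stated in the labels for the replicates, so p-values rest on the spread between these arrays. The limma test draws each gene's variance towards a value common to all genes. That common value had 13.6 degrees of freedom before surface removal and 6.62 after it, against 2 from the gene itself. A p-value therefore does not measure a gene's own spread alone.

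Of the 33 genes, 11 (33.3%) were called in both fits, against 23.8% of all genes tested. Gadd45a, Fas, Dram1 and Triap1 rose in RM1-MXRA7, 4 genes against 10.9% of all genes called higher. Ppm1d, Btg2, Tnfrsf10b, Perp, Ddb2, Polk and Gdf15 fell, 7 genes against 12.9% of all genes called lower. Of these 7, Perp passed the filter on dim probes through RM1-VE alone, and 6 were lower with both channels required to be well above background. Before surface removal 8 were called higher and 14 lower (23.9% and 23.5% of all genes), and after it 4 and 8 (15.5% and 16.8%). In either direction, 47.3% of all genes were called before and 32.2% after removal, and 23.6% before removal without being called in both fits. Agilent's own processed signals, which the scanner software corrects for spatial trends and dye, gave 2 of the 33 higher and 6 lower, with 24.4% of all genes called. The median log2 ratio of the 33 was -0.16 before and -0.11 after surface removal, beside -0.02 and -0.001 for all genes. The differences were small, with a median size of 0.30 before and 0.19 after removal on the log2 scale (0.19 and 0.13 over all genes), and none of the 33 reached a size of 1. On all 3 arrays and in both fits, 8 of the 33 ratios lay above 0 and 7 below, compared with 3517 and 4013 of the 16819 genes. The calls depended on the arrays used: in both fits, 1 gene was higher and 14 lower without replicate 1, 1 higher and 2 lower without replicate 2, and 2 higher and 6 lower without replicate 3. Dram1 and Gdf15 remained called without replicate 2, as did Perp with its dim channel. With median centring in place of loess, which put the median of all genes at -0.29 with 5.67% called higher and 58.7% lower, 1 of the 33 was called higher and 22 lower.

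**Figure D1:**
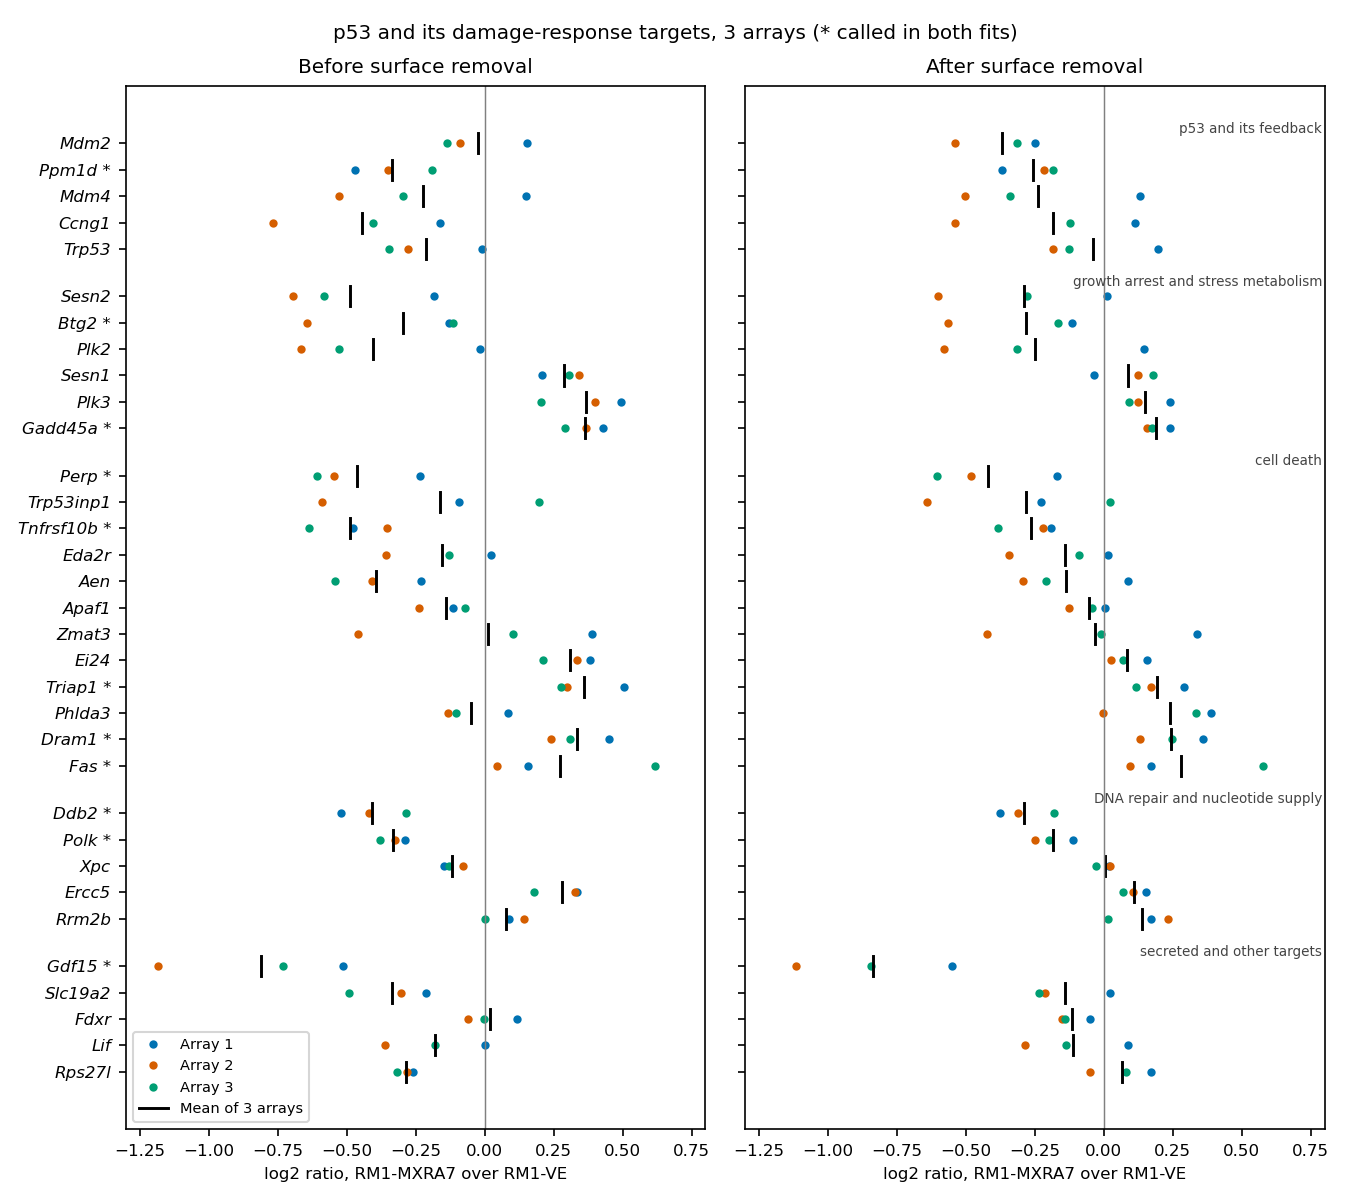
Log2 ratios of RM1-MXRA7 over RM1-VE for the 33 genes before (left) and after (right) surface removal; points are the 3 arrays, black bars their mean, and asterisks the 11 genes called in both fits, grouped by role. Gdf15 lay lowest in both panels, and array 2 gave the lowest of the 3 ratios for 15 genes before and 22 genes after removal.

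Among p53 and its feedback regulators, 1 of 5 genes, Ppm1d, fell and none rose (12.9% and 10.9% of all genes). Trp53 had log2 ratios of -0.01, -0.28 and -0.35 on arrays 1, 2 and 3 before surface removal and 0.20, -0.19 and -0.13 after it. After removal array 1 lay above 0 and the other two below it. The mean of -0.21 ± 0.18 (SD, n = 3) passed the limma test before removal (adjusted p = 0.0472) and the mean of -0.04 ± 0.21 after it did not (adjusted p = 0.735). The Trp53 probe covers chr11:69404204-69404263 on the plus strand (mm9, as are all probe coordinates here), and its level in RM1-MXRA7 was 10.58, 10.61 and 10.62 against 10.59, 10.89 and 10.96 in RM1-VE on the log2 intensity scale.

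Mdm2 behaved in the opposite way. Its ratios were 0.15, -0.09 and -0.14 before surface removal and -0.25, -0.54 and -0.31 after it, with all 3 arrays below 0 only after removal. The mean was -0.02 ± 0.16 (SD, n = 3; limma adjusted p = 0.827) before and -0.37 ± 0.15 (limma adjusted p = 0.00518) after. Agilent's own processed signals gave -0.34 for Mdm2 and -0.02 for Trp53. The Mdm2 probe (chr10:117126010-117126069, minus strand) lies in row 106, where ratios of all genes were high before removal.

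Ppm1d encodes the phosphatase Wip1, which takes damage-induced phosphates off p53 and its kinases. Its probe (chr11:85160442-85160501, plus strand) gave -0.47, -0.35 and -0.19 before and -0.37, -0.22 and -0.19 after surface removal, with no array near 0. The mean was -0.34 ± 0.14 (SD, n = 3; limma adjusted p = 0.00308) before and -0.26 ± 0.10 (limma adjusted p = 0.0144) after, and the call in both fits ended without replicate 2. Cyclin G1, the product of Ccng1, brings a phosphatase to Mdm2. Ccng1 was called before removal only, at -0.44 and then -0.18 (limma adjusted p = 0.216), and array 1 went from -0.16 to 0.11. Mdm4 passed neither test, with ratios from -0.53 to 0.15 before removal, and its other probe had a mean of -0.09.

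Of the 6 genes of growth arrest and stress metabolism, Gadd45a rose and Btg2 fell (10.9% and 12.9% of all genes). Gadd45a, a growth arrest gene induced by damage, had ratios of 0.43, 0.37 and 0.29 before and 0.24, 0.16 and 0.17 after surface removal at chr6:66985376-66985435 (minus strand). All 3 arrays lay above 0 and close together, and the mean went from 0.36 ± 0.07 (SD, n = 3; limma adjusted p = 0.00127) to 0.19 ± 0.05 (limma adjusted p = 0.0334). The Gadd45a call in both fits ended when any 1 of the replicates was left out, and Agilent's processed signals gave 0.15 (limma adjusted p = 0.133). Btg2 encodes an antiproliferative protein that recruits an mRNA deadenylase. Its ratios at chr1:135972094-135972153 (minus strand) were -0.13, -0.64 and -0.11 before and -0.12, -0.56 and -0.17 after removal, so array 2 lay far below the other two. The means were -0.30 ± 0.30 (SD, n = 3; limma adjusted p = 0.0209) and -0.28 ± 0.25 (limma adjusted p = 0.0388), and the Btg2 call ended without replicate 2.

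The other 4 growth arrest and stress genes were called before surface removal only, in the direction of their place on the array. The sestrins restrain growth signalling through mTORC1 under stress: Sesn1, in row 113, had a mean of 0.29 before and 0.09 after removal (-0.00615 with median centring), and Sesn2, in row 458, -0.49 and then -0.29 (limma adjusted p = 0.0572). The polo-like kinases Plk2 and Plk3 answer to stress signals. Plk3, in row 84, went from 0.37 to 0.15, and Plk2, in row 477, from -0.40 to -0.25, with array 1 of Plk2 changing from -0.02 to 0.15.

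Of the 12 cell death genes, 3 rose and 2 fell (10.9% and 12.9% of all genes). Fas and Tnfrsf10b encode the death receptors for Fas ligand and TRAIL, and they moved in opposite directions. Fas, at chr19:34402164-34402223 (plus strand), had ratios of 0.16, 0.05 and 0.62 before and 0.17, 0.10 and 0.58 after surface removal, with array 3 well above the other two. Its means were 0.27 ± 0.30 (SD, n = 3; limma adjusted p = 0.0307) and 0.28 ± 0.26 (limma adjusted p = 0.0439), Agilent's processed signals gave 0.50, and the call in both fits ended without replicate 2 or 3 and with the mean of each gene's probes. Tnfrsf10b, at chr14:70184141-70184200 (plus strand), had ratios of -0.48, -0.35 and -0.64 before and -0.19, -0.22 and -0.38 after removal. No array of Tnfrsf10b came near 0. Its means were -0.49 ± 0.14 (SD, n = 3; limma adjusted p = 0.000201) and -0.27 ± 0.10 (limma adjusted p = 0.0131). The Tnfrsf10b call in both fits ended without replicate 2 or 3 and with median centring.

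Perp, a desmosome protein and p53 effector of apoptosis, had ratios of -0.23, -0.55 and -0.61 before and -0.17, -0.48 and -0.61 after surface removal at chr10:18576697-18576756 (plus strand). The probe was well above background in RM1-VE on 3 arrays and in RM1-MXRA7 on 1, so its ratio rests on dim spots in RM1-MXRA7 and its test is no independent support. The means were -0.46 ± 0.20 before and -0.42 ± 0.22 after removal (SD, n = 3), whereas Agilent's processed signals, with no offset added, gave -1.93. Dram1, which encodes a lysosomal membrane protein that promotes autophagy, had ratios of 0.45, 0.24 and 0.31 before and 0.36, 0.13 and 0.25 after removal at chr10:87786168-87786227 (minus strand). All arrays of Dram1 were above 0, with means of 0.33 ± 0.11 (SD, n = 3; limma adjusted p = 0.00272) and 0.24 ± 0.11 (limma adjusted p = 0.0202), and 0.50 from Agilent's processed signals. The Dram1 call in both fits ended without replicate 1, with median centring and with a surface fitted to kept probes. The Dram1 probe had a low mean log2 intensity of 6.98, though it was well above background in both lines on all 3 arrays. Triap1, a small mitochondrial protein that opposes apoptosis, had ratios of 0.51, 0.30 and 0.28 before and 0.29, 0.17 and 0.12 after removal at chr5:115793249-115793308 (plus strand). Array 1 was highest for both genes. The Triap1 means were 0.36 ± 0.13 (SD, n = 3; limma adjusted p = 0.00182) and 0.19 ± 0.09 (limma adjusted p = 0.0394). The Triap1 call in both fits ended without replicate 1 or 2, Agilent's processed signals gave 0.18 (limma adjusted p = 0.0983), and median centring put it at 0.0113.

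The remaining 7 death genes were not called in both fits. Aen, an apoptosis-enhancing nuclease, was called before surface removal only, and it carries a comparison within the array, because its 2 probes share 50 of their 60 bases. The probes were spotted in rows 451 and 205. The first 30 bases of each are shown here, with the 20 shared bases of this stretch in capitals (mm9, plus strand).
Aen probe in row 205, chr7:86053197-86053226: ttactgggagAAGTCAGCTTGCTCATAGTA
Aen probe in row 451, chr7:86053207-86053236: AAGTCAGCTTGCTCATAGTAccagaccatc

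Before surface removal the Aen probe in row 451 had a mean of -0.39 (limma adjusted p = 0.0009 over probes) and the overlapping probe in row 205 a mean of -0.02 (adjusted p = 0.86), where 47.3% of all probes were called before and 31.7% after removal. After removal they lay at -0.14 and -0.17. Their values on arrays 1, 2 and 3 were then 0.09, -0.29 and -0.21 against 0.09, -0.32 and -0.26. The overlapping probes thus differed in call before removal and lay close on every array after it, with -0.21 against -0.26 on array 3 as the widest gap.

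Ei24, a membrane protein linked to autophagy, was called higher before surface removal only, at 0.31 and then 0.08. Phlda3, which blocks Akt at the membrane, went from -0.05 to 0.24 (limma adjusted p = 0.0501 after removal). Zmat3, an RNA-binding p53 target, had ratios of 0.39, -0.46 and 0.10, which cross 0 with the widest SD of the 33 genes (0.43). Trp53inp1, a p53 cofactor in death and autophagy, was called lower in both fits with 1 of its 2 probes (-0.47 before and -0.37 after, limma adjusted p = 0.00777 after) but not with the probe used for the gene (-0.16 and -0.28). Over probes, 23.7% were called in both fits. Eda2r, a receptor of the same family as Fas, and Apaf1, the core of the apoptosome, passed neither test, with means of -0.15 and -0.14 before and -0.14 and -0.06 after removal. The Eda2r probe was well above background in RM1-MXRA7 on 2 arrays only, so it passed the filter through RM1-VE alone. Agilent's processed signals gave -0.42 for Eda2r (limma adjusted p = 0.0378).

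Of the 5 genes of DNA repair and nucleotide supply, Ddb2 and Polk fell and none rose (12.9% and 10.9% of all genes). Ddb2 recognises ultraviolet damage in chromatin. Its ratios at chr2:91052013-91052072 (minus strand) were -0.52, -0.42 and -0.29 before and -0.38, -0.31 and -0.18 after surface removal. All arrays lay below 0, with means of -0.41 ± 0.12 (SD, n = 3; limma adjusted p = 0.000706) and -0.29 ± 0.10 (limma adjusted p = 0.00883), and the call in both fits ended without replicate 2. Polk, a polymerase that copies past damaged bases, had ratios of -0.29, -0.32 and -0.38 before and -0.11, -0.25 and -0.20 after removal at chr13:97251653-97251712 (minus strand). The Polk arrays lay close together, with means of -0.33 ± 0.05 (SD, n = 3; limma adjusted p = 0.00234) and -0.19 ± 0.07 (limma adjusted p = 0.0408). The other Polk probe gave -0.19 and -0.17 (limma adjusted p = 0.0488 and 0.0599 over probes). The Polk call in both fits ended without replicate 2 or 3, with a normexp offset of 16 and with a surface fitted to kept probes. Xpc, the partner of Ddb2 in damage recognition, lay at -0.12 before and 0.005 after removal. Ercc5, the nuclease that cuts beside the lesion, went from 0.28, where it was called, to 0.11, and Rrm2b, a ribonucleotide reductase subunit, lay at 0.08 and 0.14.

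Gdf15 had the largest difference of the 33 genes in both fits, whereas Perp, dim in RM1-MXRA7, lay further from 0 with Agilent's processed signals. Gdf15 encodes a secreted stress cytokine of the TGF-beta family. Of the 5 secreted and other targets, it alone was called in both fits, against 23.8% of all genes. Its probe covers chr8:73153293-73153352 (minus strand). The log2 level of Gdf15 was 11.50, 11.54 and 10.90 in RM1-MXRA7 and 12.02, 12.72 and 11.64 in RM1-VE on arrays 1, 2 and 3. RM1-VE was higher on each array, and the ranges of the lines did not overlap. The ratios were -0.51, -1.18 and -0.73 before surface removal and -0.55, -1.11 and -0.84 after it. The mean was -0.81 ± 0.34 (SD, n = 3; limma adjusted p = 2.2e-05) before and -0.84 ± 0.28 (limma adjusted p = 0.000455) after, and -0.87 from Agilent's processed signals.

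Rps27l and Slc19a2 were called before surface removal only. Rps27l, a ribosomal protein paralogue, had nearly equal ratios of -0.26, -0.28 and -0.32 before removal and 0.17, -0.05 and 0.08 after it, so its sign turned. Its probe lies in row 495, and its mean went from -0.29 (limma adjusted p = 0.00584) to 0.07 (limma adjusted p = 0.443). Slc19a2, a thiamine transporter, went from -0.34 to -0.14. Lif, a cytokine, and Fdxr, the mitochondrial ferredoxin reductase, passed neither test, with means of -0.18 and 0.02 before and -0.11 and -0.11 after removal, and Fdxr lay at -0.34 with median centring.

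The place of a probe on the array moved with the calls before surface removal. The 7 genes with probes in rows 1 to 133 included 6 called higher and 0 called lower, and the 9 in rows 400 to 532 included 0 higher and 7 lower. Of all genes, 59.96% were called higher in rows 1 to 133 and 48.2% lower in rows 400 to 532. The median of all genes ran the same way, from 0.26 in rows 1 to 133 through 0.08 and -0.11 to -0.19 in rows 400 to 532, and after removal from 0.03 to -0.03. Of these 13 calls in the outer bands, 3 held in both fits (Gadd45a, Dram1 and Polk). Removal took away 27.4% of the variance of the log ratios on array 1, 26.3% on array 2 and 19.8% on array 3. Of the 33 genes, 28 kept their sign, and for 18 the size of the ratio became over 1.5 times smaller. Across all 16819 genes, which are not independent replicates, the Spearman correlation with Agilent's processed signals was 0.719 before and 0.920 after removal.

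**Figure D2:**
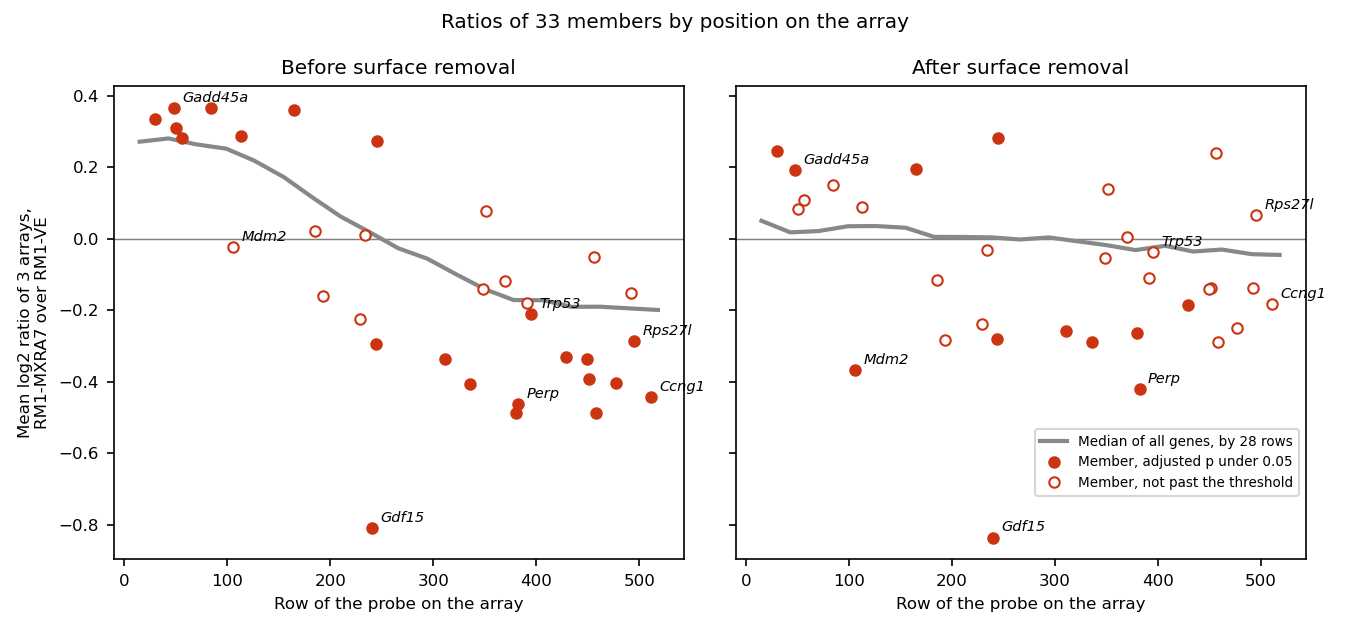
Mean log2 ratio of each of the 33 genes against the array row of its probe before (left) and after (right) surface removal; filled points have an adjusted p under 0.05 and the grey line is the median of all genes in bins of 28 rows. Before removal the genes followed the fall of the grey line from 0.26 in the first 133 rows to -0.19 in the last; Gdf15 lay far below it in both panels.

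The 33 genes varied more between arrays than most genes did. The SD of the 3 ratios was above 0.3 for 8 of the 33 before surface removal, against 3.13% of all genes, and after removal 24 of 33 lay above the all-gene median of 0.0958. SDs above 0.3 are drawn down by limma towards the common value, so the p-values of these genes are smaller than their own spread alone would give. Array 2 gave the lowest ratio for 22 of 33 genes after removal, against 29.0% of all genes, and array 1 for 3, against 36.0%. The median ratio of the 33 was 0.09, -0.22 and -0.12 on arrays 1, 2 and 3 after removal, while that of all genes was -0.01, -0.003 and -0.002. On array 1, 11 of the 33 lay below 0, on array 2, 23, and on array 3, 21. Across the 33 genes, which share the arrays and are not replicates, the ratios of arrays 1 and 2 correlated at r = 0.599, of arrays 1 and 3 at 0.667 and of arrays 2 and 3 at 0.772 after removal. Across all genes these were 0.829, 0.756 and 0.839.

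The levels in the single channels moved between arrays as well. For 17 of the 33 genes the range of the level between arrays was wider than the mean difference between the lines, as it was for 55.8% of all genes, with a median range of 0.32 on the log2 scale against 0.22. In 13 of the 33, array 1 was lowest in both channels, against 19.5% of all genes. Trp53inp1 had the widest range. Its log2 level was 10.78, 11.93 and 12.23 in RM1-MXRA7 and 10.88, 12.52 and 12.03 in RM1-VE, so both lines were over 1 lower on array 1 than on the others. Ccng1, with 13.02, 13.23 and 13.74 in RM1-MXRA7 and 13.18, 14.00 and 14.15 in RM1-VE, was also lowest on array 1 in both lines. Mdm2 stood at 13.77, 13.93 and 14.18 against 13.62, 14.02 and 14.32, again lowest on array 1. The arrays are numbered pairs, and what differed between the RNA of array 1 and the others was not tested.

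**Figure D3:**
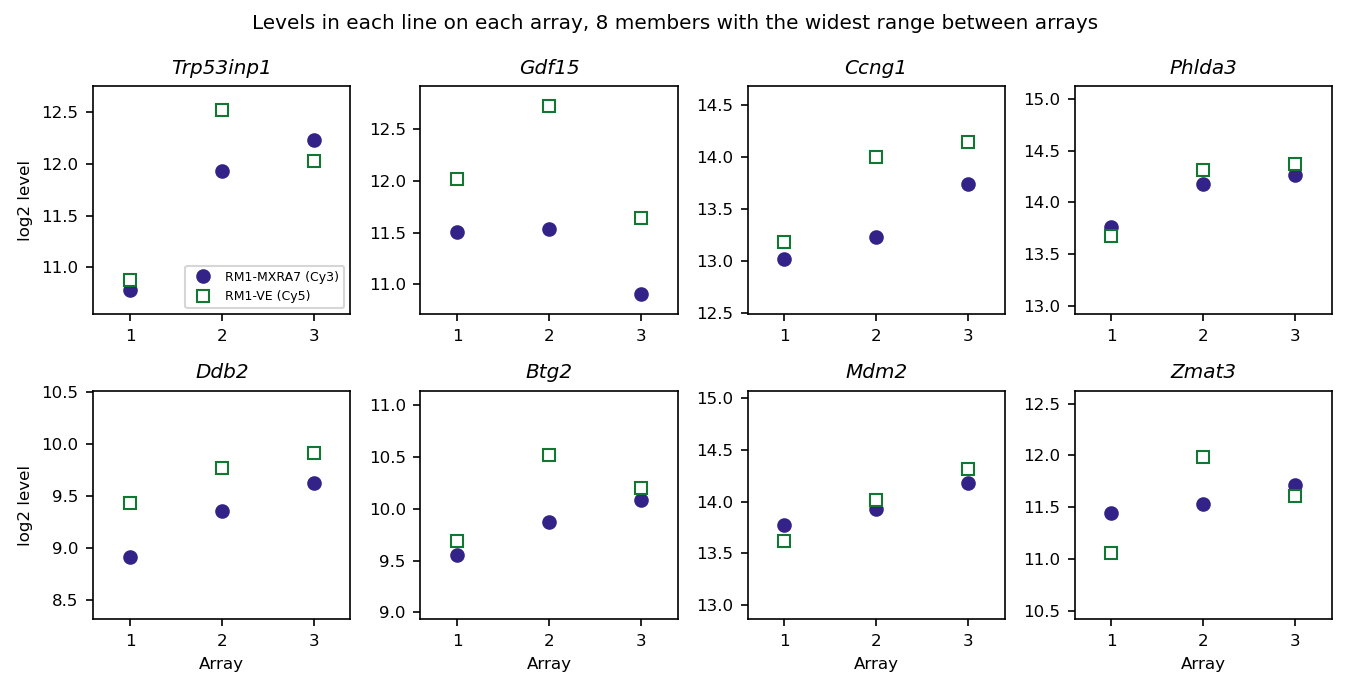
Log2 level in RM1-MXRA7 (filled circles) and RM1-VE (open squares) on each of the 3 arrays, for the 8 genes with the widest range between arrays. Levels are normalized intensities, with mean intensities quantile-normalized between arrays. All panels span the same number of log2 units. Trp53inp1 ran from 10.78 on array 1 to 12.23 on array 3 in RM1-MXRA7, a wider span than the distance between the lines on any array.

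Counts of calls for other genes of the pathway, in lists chosen with earlier results known, are to be read against the 10.9% of all genes called higher, 12.9% lower and 23.8% in either direction in both fits. Of 25 other p53 targets, 23 were tested, 1 rose and 3 fell (17.4% in all), with a median log2 ratio of -0.13 before and -0.12 after surface removal. Pmaip1, which encodes the BH3-only death protein Noxa, was well above background in RM1-VE on 3 arrays and in RM1-MXRA7 on 0. Its level in RM1-MXRA7 was at least 2.80-fold lower than in RM1-VE, a bound that sets the mean RM1-VE level against the lowest signal counted as above background. Its measured mean log2 levels were 6.19 and 7.86, and the size of the difference beyond the bound rests on dim spots. Pmaip1 passed the filter on dim probes through RM1-VE alone, so its call among the 3 that fell is no independent support. Sulf2, a sulfatase of the cell surface, rose, with means of 0.95 ± 0.38 before and 0.63 ± 0.43 after. Ephx1, an epoxide hydrolase, fell by 0.63 before and 0.72 after removal on the log2 scale, and Dcxr, a sugar reductase, fell by 0.27 and 0.40 with its brighter probe. The other Dcxr probe, with a mean log2 intensity of 9.85 against 10.10, passed neither test, at -0.24 before and -0.30 after removal.

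Cdkn1a, the p21 gene and the best known arrest target, passed neither test with its brightest probe. Its ratios were 0.20, -0.57 and -0.43 before surface removal, with array 1 on the other side of 0 from the rest, and means of -0.26 before and -0.28 after. Of its other probes, 1 was called lower in both fits (-0.44 and -0.41) and 1 was not (-0.04 and -0.10). These probes were far dimmer, with mean log2 intensities of 7.67 and 7.61 against 13.58 for the brightest. Bax, the pore-forming death protein, had a mean of 0.13 before and 0.34 after removal, was called after it only (limma adjusted p = 0.00451), and lay at -0.36 with median centring. Bbc3, which encodes Puma, lay at -0.18 and -0.11.

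Upstream of p53, 3 of the 20 tested damage sensors and kinases rose and 0 fell (15% called, below the 23.8% of all genes). H2ax, the histone variant phosphorylated at breaks, had ratios of 0.73, 0.44 and 0.80 before removal and means of 0.66 ± 0.19 before and 0.60 ± 0.07 after (SD, n = 3; limma adjusted p = 0.000207 after). Rad9a, of the checkpoint clamp, lay at 0.28 and 0.33, and Clspn, the Chk1 adaptor claspin, at 0.22 and 0.18, whereas median centring put them at -0.0312 and -0.0372, both above its median of -0.29. Atm was called lower before removal only (-0.24 and then -0.13), and Chek1 did not pass the filter on dim probes.

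Among 16 tested modifiers and cofactors of p53, 2 rose and 4 fell (37.5% called, against 23.8% of all genes). Sirt1, a deacetylase that acts on p53, rose, at 0.32 and 0.39, and lay at -0.0160 with median centring. Crebbp, an acetyltransferase and p53 coactivator, was at -0.47 before and -0.26 after removal. Rpl11, a ribosomal protein that binds Mdm2, was at -0.50 and -0.32, and the p53 relative Trp63 at -0.52 and -0.36. All 3 fell with the probe used for the gene. The 2 other Rpl11 probes were called lower after removal only, at -0.30 and -0.24, against -0.08 and 0.06 before it. Cdkn2a, the Arf locus, was above background on 0 arrays in both lines with each of its 2 probes. Of 18 genes of nucleotide excision repair, the process that Ddb2 and Xpc begin, 2 rose (Rad23b at 0.53 and 0.29, Gtf2h3 at 0.22 and 0.19, but -0.13 with median centring) and 0 fell, 11.1% against 23.8% of all genes.

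Of 12 genes that p53 lowers through p21 and the DREAM complex, 4 fell and 0 rose (33.3% called, against 23.8% of all genes). Their median log2 ratio was -0.21 both before and after surface removal, beside -0.02 and -0.001 for all genes. Cdc20, the activator of the anaphase complex, lay at -0.47 and -0.32, Kif23, a kinesin of cell division, at -0.41 and -0.21, Cdk1 at -0.32 and -0.25 and Ccnb1 at -0.27 and -0.21. The 4 are mitotic genes. Dimmer probes of Ccnb1 (-0.32 and -0.46) and Cdk1 (-0.23 and -0.20) were also called lower in both fits. A further Ccnb1 probe was called after removal only (-0.06 and -0.30), and a further Cdk1 probe before it only (-0.21 and -0.11).

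**Figure D4:**
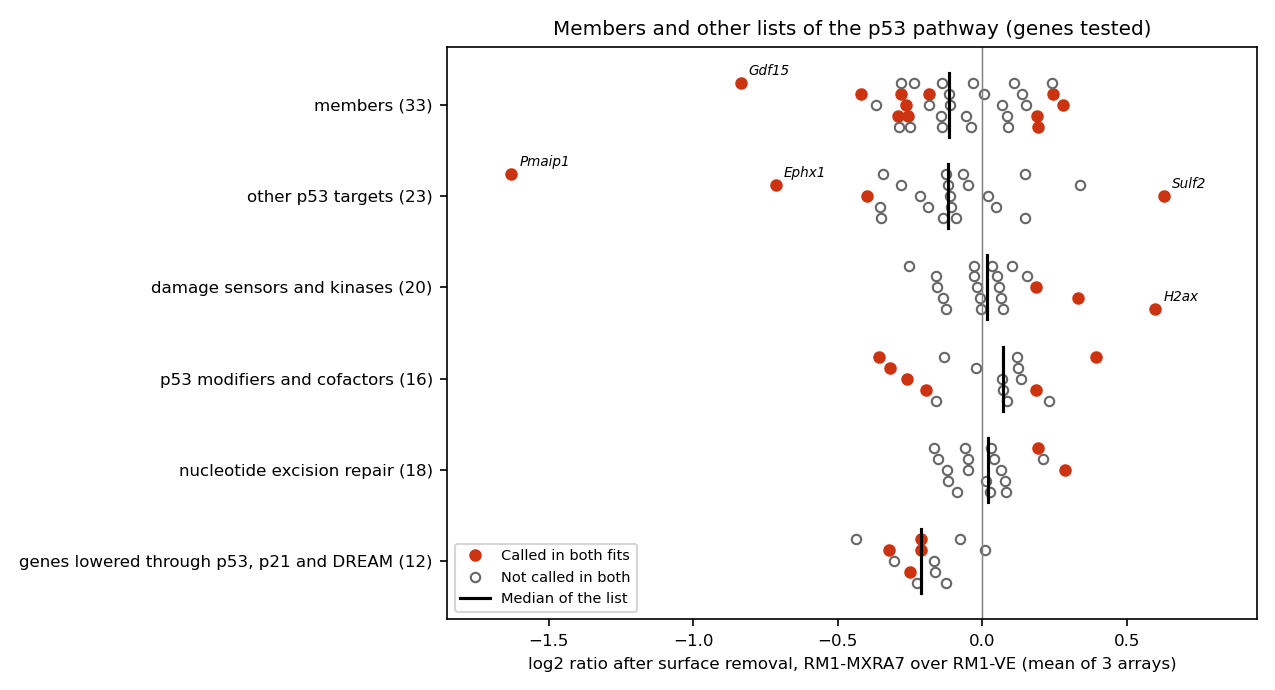
Mean log2 ratio after surface removal for the 33 genes and 5 other lists of the p53 pathway; filled points are genes called in both fits, open points the rest, and black bars the median of each list, with the number of genes tested in brackets. Pmaip1 at -1.63, with RM1-MXRA7 not above background, and Gdf15 at -0.84 lay lowest, and Sulf2 at 0.63 and H2ax at 0.60 highest.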

How the data were processed

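The authors deposited, per the file headers, the spot tables of Agilent Feature Extraction (version 10.7.1.1, per the submitters' processing notes), with a mean and a background intensity per spot and channel as scanned. The same deposited tables, per the file headers, hold processed signals, which that software had corrected for background, spatial trends and dye, and a log10 ratio made from them (Cy5 divided by Cy3), which was not used here. The authors' deposited value table gives 1 linear ratio per probe. Within 1%, over 99.6% of its values matched Cy3 over Cy5 processed signal, so its direction is known, and its column medians were 1.02, 1.03 and 0.972.

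Spot intensities (43020 noncontrol spots) were background-corrected by normexp with offset 50, then loess-normalized per array in limma 3.58.1 (R 4.3.3), and every ratio is given as RM1-MXRA7 over RM1-VE. Levels are the single channels after that step and after quantile normalization of the mean intensities between arrays (Aquantile in limma). Spots of 1 probe were averaged. Kept probes were well above background on every array in Cy3, in Cy5 or in both, and a gene was its kept probe of highest mean intensity. Symbols came through RefSeq accessions for 27508 probes, and probe coordinates are the files' own (mm9). The surface was a polynomial of degree 4 over row and column, alone and times log2 intensity, fitted to all noncontrol spots of an array.

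The test of each mean log2 ratio against 0 used lmFit and eBayes (2 residual degrees of freedom, 13.6 prior before and 6.62 after surface removal), with Benjamini-Hochberg adjustment over 16819 genes or 21791 probes. Per the labels, each array pairs the lines under 1 replicate number, so the ratio already holds the pairing. The 33 genes and the other lists were chosen with earlier results of these data known. All 33 genes are accounted for. Named from the other lists are Cdkn1a, Bax, Bbc3, Pmaip1, Atm and Chek1 and up to 4 genes per list with the smallest adjusted p among those called in both fits. In simulated data with 16819 genes, limma recovered 60 of 67 changes of 0.3, 67 of 67 of 0.5 and 66 of 66 of 1, with 5 false calls, and after removal of a simulated surface the same numbers. With that surface left in, 47 of 67 changes of 0.3 were recovered with 288 false calls. The simulated surface was the same on every array and a polynomial within the degree fitted, so its removal was fixed in advance. It did not depend on intensity, and the noise was equal for all genes, so these numbers do not measure recovery on the real arrays. Alternatives covered background, normalization, surface, filter, probe choice, series matrix values, test and arrays.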

Additional observations from a re-analysis of the deposited data

How the results depend on the processing

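Before surface removal, 8 of the 33 genes were called higher and 14 lower. Agilent's processed signals and the series matrix values each gave 2 higher and 6 lower, and surface removal gave 4 and 8. A surface fitted to kept probes alone, chosen after seeing the data, gave 3 and 7, and 2 rather than 4 genes higher in both fits. Median centring in place of loess moved the median of all genes to -0.29, with 5.67% of genes higher and 58.7% lower, and it gave 1 and 22 of the 33, with 0 higher in both fits. A plain t-test on the same values gave 0 and 0 after adjustment, with 6 higher and 6 lower at an unadjusted p under 0.05. Leaving out each replicate gave 6 to 7 higher and 10 to 16 lower, after surface removal 1 to 2 higher and 2 to 17 lower, and in both fits 1 to 2 higher and 2 to 14 lower. For the pairing of the lines by array, single channels with the replicate block repeat the paired test of the main fit, so they could only give the same 8 and 14. Without the replicate block they gave 1 and 1. The median of the 33 minus that of all genes was -0.15 and stayed between -0.23 and -0.02 under these alternatives, with an SD of 0.15 between arrays.

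All 11 genes called in both fits kept their direction under every alternative that gave them a value. Each of the 11 had the same sign on all 3 arrays in both fits, so leaving out a replicate could not turn it. The single-channel fits and the filters leave the mean ratio of a gene unchanged, so they could not turn it either. Without replicate 2, 3 of the 11 calls remained in both fits (Dram1, Gdf15 and Perp, which is dim in RM1-MXRA7), without replicate 1, 8, and without replicate 3, 7. With Agilent's processed signals 6 of 11 were called (Ppm1d, Gadd45a, Btg2, Triap1 and Polk were not), and with a surface fitted to kept probes 8 (Gadd45a, Dram1 and Polk were not). In both fits, a normexp offset of 16 left 9 calls (Triap1 and Polk were lost). Median centring left 6 (Gadd45a, Fas, Tnfrsf10b, Dram1 and Triap1 were lost). Signs turned in genes outside the 11. Rps27l turned to 0.0665 with the surface removed, and to 0.0148, 0.125 and 0.0599 without replicates 1, 2 and 3. Trp53 turned to 0.0357 and 0.00535 with the surface removed and replicate 2 or 3 left out, and Phlda3 to 0.36 with replicate 2 left out. Median centring turned Sesn1 to -0.00615, Fdxr to -0.342, Bax to -0.364, Rad9a to -0.0312, Clspn to -0.0372, Gtf2h3 to -0.130 and Sirt1 to -0.0160. The cause of these changes was not tested, beyond that median centring leaves the intensity trend in and that dropping a replicate leaves 2 arrays. With 3 arrays of 1 dye orientation, a dye effect on a probe cannot be told apart from a line difference.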

Other observations

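Probes of 1 gene in the wider pathway did not always give the same call. Ephx1 fell with both of its probes, the other at -0.35 before and -0.42 after surface removal. For Rad23b the brighter probe gave 0.53 before and 0.29 after surface removal and the other 0.07 and -0.06. For Rpl11 only the brightest probe was called in both fits. Its other probes gave -0.08 and 0.06 before removal (limma adjusted p = 0.409 and 0.519 over probes). After removal they gave -0.30 and -0.24 (limma adjusted p = 0.00615 and 0.0129). The dimmer Crebbp probe passed neither test, at 0.02 before and -0.02 after removal. Chek1, Ptprv and Cyfip2 of the other lists did not pass the filter on dim probes in these cells. Among the 21 other p53 targets with a RefSeq promoter, 4 held an exact match to the 10-base p53 unit and 2 held a pair of units, beside 10 and 2 of the 26 genes with a promoter among the 33.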
